A study of Oryzias latipes with 6 samples.

Results

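10 genes known from the lining of the intestine were followed through RNA sequencing of medaka testis (Oryzias latipes, a small laboratory fish). They were chosen by their measured levels, because a mutant library and a wild-type library stood above the rest. Their levels by library are therefore a description, and nothing is supported with that pattern. The 10 names correspond to 11 of the 24365 genes in the deposited table. 8 genes carry a listed symbol exactly. SLC6A19 stands for 2 copies that the table marks as 1 of many, and si is named there by its identifier alone and received its symbol from the RefSeq gene table through its NCBI gene number.

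The tested fish were nphp4-/- mutants and the others wild type, with 3 libraries in each group and the testes of 2 fish pooled in every library. The labels used here give no strain, age or treatment and do not describe the lesion. nphp4 encodes nephrocystin-4, a protein at the base of cilia. Its transcript was taken as ENSORLG00000023493, a gene listed by identifier that the deposited description matches to frog nephrocystin-4. It was at 6.84, 7.0 and 10.9 FPKM in mutant 1, 2 and 3, against 17.1, 23.5 and 12.2 FPKM in wild type 1, 2 and 3 (adjusted p = 0.436, limma). The groups did not overlap, as for 6.45% of the 15203 genes tested in this direction. The transcript was still present in every mutant library. FPKM counts fragments per kilobase of gene length, here scaled between libraries by size factors of median ratios. The deposited values correspond to 13438879 to 16054354 reads on genes in the mutant libraries and 14691441 to 16004325 in the wild-type libraries. The labelled tissue was checked against its markers, and the 2 given here were high in all 6 libraries. The germ cell gene hormad1 was at 635 to 759 FPKM in the mutant and 557 to 745 FPKM in wild type, and the gonadal somatic gene gsdf at 746 to 1078 FPKM and 910 to 1004 FPKM. Not every marker was high: 17 of 19 germ cell genes and 15 of 18 somatic genes averaged at least 1 FPKM in either group. The germ cell genes summed to 2492 to 2869 FPKM in the mutant and 2069 to 2879 FPKM in wild type, lowest in wild type 3. Wild type 3 had a median correlation of 0.931 with the other libraries over the log2 values of all genes with a read, below the 0.971 to 0.981 of the other 5.

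Enterocytes, the absorptive cells of the intestine, carry a dense layer of microvilli called the brush border. Digestive enzymes such as sucrase-isomaltase and meprin are anchored there, surface mucins cover it, and transporters beside them take up sugars, amino acids and ions. Below it, claudins seal the gaps between neighbouring cells and let selected ions pass, and the cells pack absorbed fat with apolipoproteins. The disulfide isomerase encoded by agr2 belongs to mucus-secreting cells and not to the brush border itself. In mammals, meprin and the transporter encoded by SLC6A19 are also made in the proximal tubule of the kidney.

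Summed over the 11 genes, the level was 16.6, 87.2 and 25.4 FPKM in mutant 1, 2 and 3, against 37.6, 39.7 and 558 FPKM in wild type 1, 2 and 3. Wild type 3 was far above every other library and mutant 2 was next. These genes took 0.00500%, 0.0296% and 0.00901% of the reads on genes in mutant 1, 2 and 3. In wild type 1, 2 and 3 the share was 0.0118%, 0.0134% and 0.171%. The exact 95% binomial (Clopper-Pearson) interval was 0.0287% to 0.0306% for mutant 2 and 0.169% to 0.173% for wild type 3. Such intervals cover counting error only, here and below. In bulk tissue, fewer cells of a type and less RNA per cell cannot be told apart.

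Wild type 3 was the highest library for 10 of the 11 genes, and mutant 2 the second for 7 of those 10. Over all 15203 genes tested, wild type 3 was highest for 27.6%, and wild type 3 was highest with mutant 2 second for 9.93%. The pattern by which the genes were chosen therefore did not hold for all of them. Both libraries were at least 4-fold above the highest of the other 4 libraries for 5 genes (si, mep1a.1, mep1a.2, muc13b and cldn15a). Wild type 3 alone was that far above for another 4 (apoa4a, the first SLC6A19 copy, slc26a3.1 and cldn15b). agr2 fell short of the fold, and the second SLC6A19 copy was highest in wild type 2. Among all genes tested, 1.65% had both libraries 4-fold above the other 4, 1.75% had mutant 2 there and 4.64% had wild type 3 there. The fold was set after the values were seen.

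**Figure D1:**
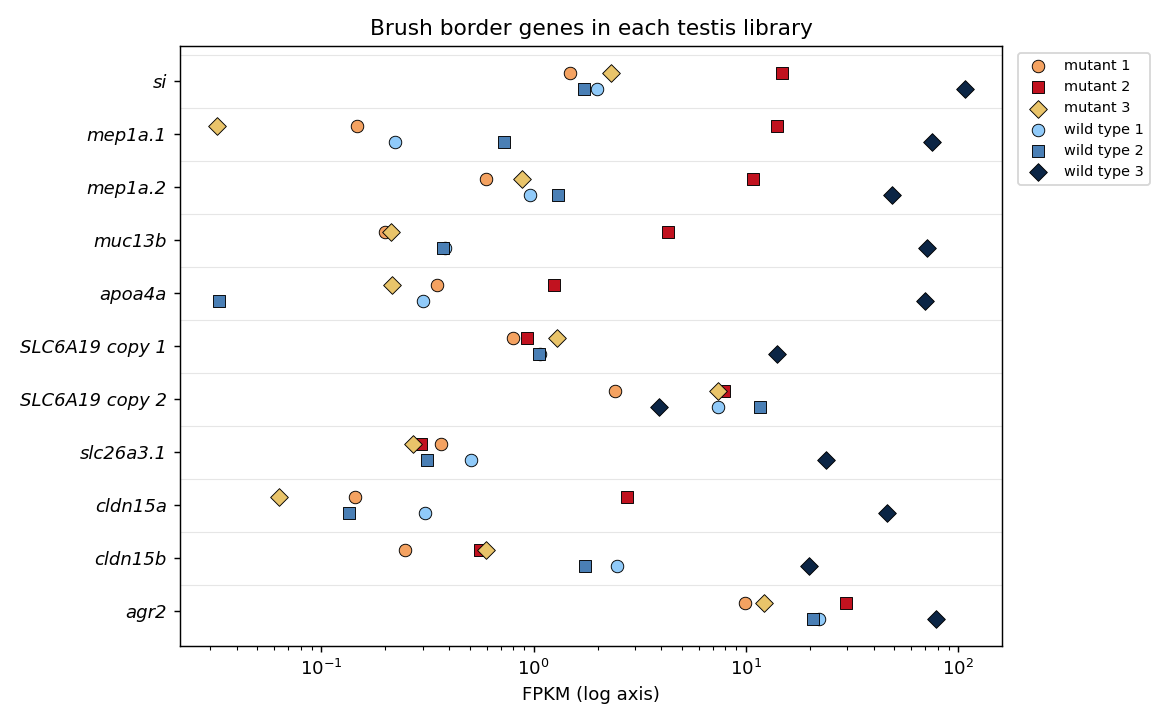
FPKM (log axis) of each of the 11 genes in the 3 mutant (upper points of each row) and 3 wild-type (lower points) testis libraries. Wild type 3 lies to the right of every other library in 10 of the 11 rows, mutant 2 is second in 7 of those, and in the rows of slc26a3.1, cldn15b and the first SLC6A19 copy mutant 2 lies among the low libraries.

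The digestive enzymes came first. si, sucrase-isomaltase, which splits sucrose and starch fragments (ENSORLG00000012288, chromosome 13, 23669629 to 23726560, plus strand, in the coordinates of the deposited table), was at 1.49, 14.9 and 2.31 FPKM in mutant 1, 2 and 3, against 1.99, 1.72 and 108 FPKM in wild type 1, 2 and 3. The 4 low libraries still held 164 to 291 reads of it, so the gene was detected in every library. Mutant 2 was 6.44-fold above the highest of them (95% counting interval 5.68 to 7.33), and wild type 3 was 46.6-fold above it (41.5 to 52.6).

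mep1a.1 encodes an alpha subunit of meprin, a zinc protease of the brush border (ENSORLG00000015782, chromosome 24, 12198820 to 12206725, minus strand). Its level was 0.148, 14.0 and 0.0323 FPKM in mutant 1, 2 and 3, against 0.222, 0.726 and 75 FPKM in wild type 1, 2 and 3. The 4 low libraries held 1 to 21 reads. Here mutant 2 stood out more than for any other of the 11 genes, 19.2-fold above the highest of those 4 (95% counting interval 12.4 to 31.5). mep1a.2, a related gene on the same chromosome (ENSORLG00000015582, 10676034 to 10683553, plus strand), had 0.594, 10.7 and 0.880 FPKM in mutant 1, 2 and 3, against 0.963, 1.31 and 48.9 FPKM in wild type 1, 2 and 3. Mutant 2 exceeded the highest of the 4 low libraries 8.22-fold (95% counting interval 6.28 to 10.9) and wild type 3 exceeded it 37.4-fold (29.0 to 49.1). The span of mep1a.2 overlaps serinc1 on the same strand, whose level of 9.60 to 12.7 FPKM in the mutant and 11.9 to 13.8 FPKM in wild type did not follow it. mep1a.1 overlaps the unnamed ENSORLG00000025433, also on the same strand, at 0.349 to 0.482 FPKM in the mutant and 2.54 to 3.57 FPKM in wild type. That gene was not raised in mutant 2, and its groups did not overlap (6.45% of all genes tested were apart in this direction).

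muc13b, a mucin held in the cell membrane (ENSORLG00000026223, chromosome 19, 6824093 to 6833247, plus strand), was at 0.199, 4.29 and 0.213 FPKM in mutant 1, 2 and 3, against 0.381, 0.374 and 71.1 FPKM in wild type 1, 2 and 3. Mutant 2 was 11.3-fold above the highest of the 4 low libraries (95% counting interval 7.08 to 18.9) and wild type 3 was 187-fold above it (121 to 306). agr2, which serves the folding of mucins in secretory cells (ENSORLG00000024595, chromosome 11, 21467700 to 21474520, minus strand), differed from muc13b, with 9.85 FPKM or more in every library. Its level was 9.85, 29.6 and 12.2 FPKM in mutant 1, 2 and 3, against 22.0, 20.7 and 78.5 FPKM in wild type 1, 2 and 3. Mutant 2 was 1.35-fold (95% counting interval 1.2 to 1.51) and wild type 3 was 3.57-fold (3.25 to 3.93) above wild type 1, the highest of the other 4. Mutant 1 and mutant 3 lay below all 3 wild-type libraries.

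apoa4a, apolipoprotein A-IV, is secreted with absorbed fat (ENSORLG00000009193, chromosome 11, 19355084 to 19357142, minus strand). It was at 0.352, 1.25 and 0.215 FPKM in mutant 1, 2 and 3, against 0.302, 0.0330 and 69.8 FPKM in wild type 1, 2 and 3. Mutant 2 held 34 reads and wild type 3 held 1899, and the other 4 libraries held 1 to 10. Mutant 2 was 3.56-fold above the highest of these (95% counting interval 1.72 to 8.08), whereas wild type 3 was 198-fold above it (108 to 414).

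Among the transporters of the group, mutant 2 was not high for slc26a3.1 or the first SLC6A19 copy. slc26a3.1 encodes an anion exchanger that takes up chloride in return for bicarbonate (ENSORLG00000012121, chromosome 23, 9407948 to 9443052, minus strand). It was at 0.365, 0.294 and 0.270 FPKM in mutant 1, 2 and 3, against 0.507, 0.316 and 23.7 FPKM in wild type 1, 2 and 3. Mutant 2 held 10 reads against 808 in wild type 3, and was not above the other 4 libraries, with 0.580 times the highest of them (95% counting interval 0.244 to 1.29).

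SLC6A19 encodes B(0)AT1, a sodium-driven carrier of neutral amino acids. Its copies are neighbours on the plus strand of chromosome 11 and differed in pattern. The first (ENSORLG00000013835, 25640357 to 25647892) was at 0.797, 0.932 and 1.29 FPKM in mutant 1, 2 and 3, against 1.07, 1.06 and 14.0 FPKM in wild type 1, 2 and 3. Wild type 3 was 10.8-fold above the highest of the others (95% counting interval 8.33 to 14.3) and mutant 2 was within their range. The second (ENSORLG00000022823, 25648616 to 25660778) was at 2.41, 7.91 and 7.40 FPKM in mutant 1, 2 and 3, against 7.40, 11.6 and 3.91 FPKM in wild type 1, 2 and 3. Here wild type 3 was the lowest wild-type library, at 0.336 times the level of wild type 2 (95% counting interval 0.293 to 0.384). Farther along the same stretch, ENSORLG00000013853, another match to B(0)AT1, had at most 0.0472 FPKM in any library. slc6a18, a relative of the same carrier family (25688875 to 25698704), was at 0.261, 8.74 and 0.370 FPKM in mutant 1, 2 and 3, against 0.449, 0.490 and 22.0 FPKM in wild type 1, 2 and 3. Mutant 2 was high for slc6a18, although for neither SLC6A19 copy was it above the range of the libraries other than wild type 3. These neighbours were named for their position after their values were seen, and how the counting divides reads between such copies was not tested.

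The claudins of the group also parted. cldn15a, which in mouse and zebrafish belongs to the gut epithelium (ENSORLG00000007164, chromosome 18, 17568211 to 17573364, minus strand), was at 0.144, 2.75 and 0.0629 FPKM in mutant 1, 2 and 3, against 0.309, 0.135 and 45.9 FPKM in wild type 1, 2 and 3. Mutant 2, with 73 reads, was 8.89-fold above the highest of the 4 low libraries (95% counting interval 4.57 to 19.3), which held 2 to 10 reads. Its span overlaps dnajc3b on the same strand, at 21.4 to 25.6 FPKM in the mutant and 16.6 to 20.5 FPKM in wild type. cldn15b (ENSORLG00000025891, chromosome 14, 15555422 to 15566975, minus strand) was at 0.248, 0.559 and 0.597 FPKM in mutant 1, 2 and 3, against 2.47, 1.75 and 19.9 FPKM in wild type 1, 2 and 3. All mutant libraries, mutant 2 included, were below all wild-type libraries, so mutant 2 was not raised here. It held 43 reads, 0.227 times the level of wild type 1 (95% counting interval 0.160 to 0.315). Of the claudin 15 relatives, cldn15la followed cldn15a, with 0.0284, 5.2 and 0.00 FPKM in mutant 1, 2 and 3, against 0.0244, 0.106 and 34.3 FPKM in wild type 1, 2 and 3. cldn15lb was at 3.40 to 5.30 FPKM in the mutant and 3.00 to 4.37 FPKM in wild type, and agr1, a relative of agr2, at 0.644 to 1.37 FPKM in the mutant and 0.966 to 4.26 FPKM in wild type.

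The genes were chosen on these libraries, so the level in mutant 2 as a percentage of that in wild type 3 is a description. It was 202% for the second SLC6A19 copy and 37.7% for agr2, and in neither was wild type 3 at least 4-fold above the other 4 libraries. It was 22.0% for mep1a.2, 18.6% for mep1a.1 and 13.8% for si. It was 6.67% for the first SLC6A19 copy, 6.04% for muc13b, 5.98% for cldn15a, 2.81% for cldn15b, 1.79% for apoa4a and 1.24% for slc26a3.1. As a ratio, wild type 3 exceeded mutant 2 by 4.55-fold for mep1a.2 (95% counting interval 4.11 to 5.05), 16.7-fold for cldn15a (13.2 to 21.5) and 55.8-fold for apoa4a (39.8 to 80.8). Over the 706 tested genes in which wild type 3 was 4-fold above the other 4 libraries, the median was 21.5%, with quartiles of 12.7% and 31.6%.

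**Figure D2:**
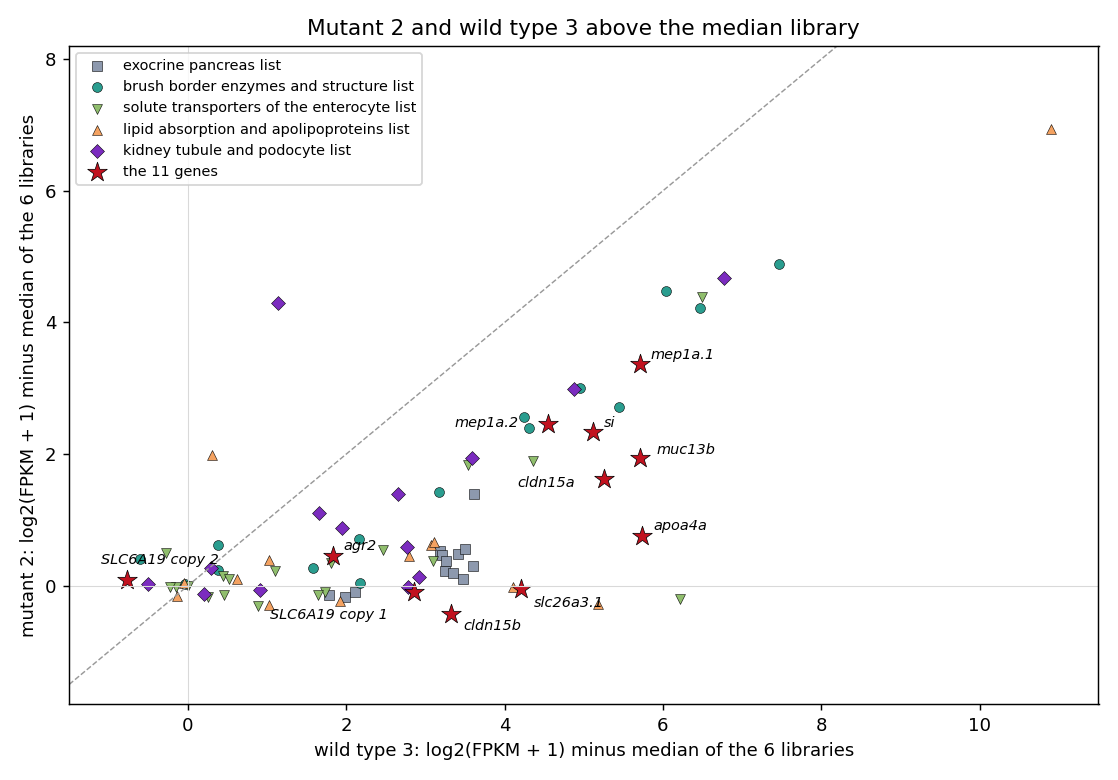
Level in mutant 2 (vertical axis) against that in wild type 3 (horizontal axis), each as log2(FPKM + 1) minus the gene's median over the 6 libraries, for the 11 genes (stars) and the tested genes of 5 lists, with the line of equal values dashed. The meprins, si, muc13b and cldn15a are raised in both libraries, slc26a3.1, cldn15b and the first SLC6A19 copy only along the wild type 3 axis, and the exocrine pancreas genes lie low on the mutant 2 axis.

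None of the 11 genes was called between mutant and wild type by the test over all genes. They were chosen for a high library in each group, which widens the spread within groups, so the lack of calls does not show equal levels. limma was run on log2(FPKM + 1), mutant minus wild type, for the 15203 genes whose average reached 1 FPKM in mutant or wild type. 0 of the 11 had an adjusted p below 0.05, where 0.0592% of all genes tested did (9 genes), and the smallest adjusted p among them was 0.666. limma-voom on the recovered reads also called 0 of the 11, and 0.00% of all genes (1050 genes had an unadjusted p below 0.05, and the smallest adjusted p was 0.151). All 11 differences were below 0, as were 48.7% of those tested, with a median of -1.06 against 0.01 over all genes tested. 4 of the 11 had a mutant mean under 1 FPKM and entered the test through their wild-type mean, 3 of them (apoa4a, slc26a3.1 and cldn15a) only through wild type 3, so the sign is no support.

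The spread within the groups was large for si, whose standard error exceeded its difference. si averaged 6.21 ± 7.49 FPKM in the mutant and 37.1 ± 61.0 FPKM in wild type (SD, n = 3 each), a log2 difference of -0.92 (SE 1.70, 95% interval -5.24 to 3.40). Without wild type 3 the sign turned for si (0.83), mep1a.1 (0.84), mep1a.2 (0.62) and muc13b (0.52), and with mutant 2 left out as well the difference was 0.0073 for si and -0.30 for mep1a.2. Without wild type 3, the 3 genes that entered the test only through it dropped under the filter. For apoa4a the difference was -1.56 (SE 1.76) and for slc26a3.1 it was -1.48 (SE 1.15), with adjusted p values of 0.880 and 0.846 in limma.

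For cldn15b the groups were apart in every library, which held for 6.45% of the tested genes in this direction. It averaged 0.468 ± 0.191 FPKM in the mutant and 8.03 ± 10.3 FPKM in wild type (SD, n = 3 each), a log2 difference of -2.0 (SE 0.76, 95% interval -3.85 to -0.15). The unadjusted p in limma was 0.0383, which 7.13% of the tested genes reached below 0.05, and the adjusted p was 0.666. By exact permutation of the libraries, 2-sided, p was 0.1, and 3 against 3 libraries cannot give less. Without wild type 3 the difference was -1.08, and without wild type 3 and mutant 2 it was -1.13 (adjusted p = 0.272, limma). For agr2 the difference was -1.06 (SE 0.63) with all libraries, -0.45 without wild type 3 and -0.90 without both (adjusted p = 0.219, limma). For the second SLC6A19 copy it was -0.34 (SE 0.48), 0.10 without mutant 1 and -0.94 without both mutant 2 and wild type 3. Those 2 libraries were left out for their high sums of these same genes, so the differences without them are descriptions. cldn15b entered the test only through its wild-type mean.

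**Figure D3:**
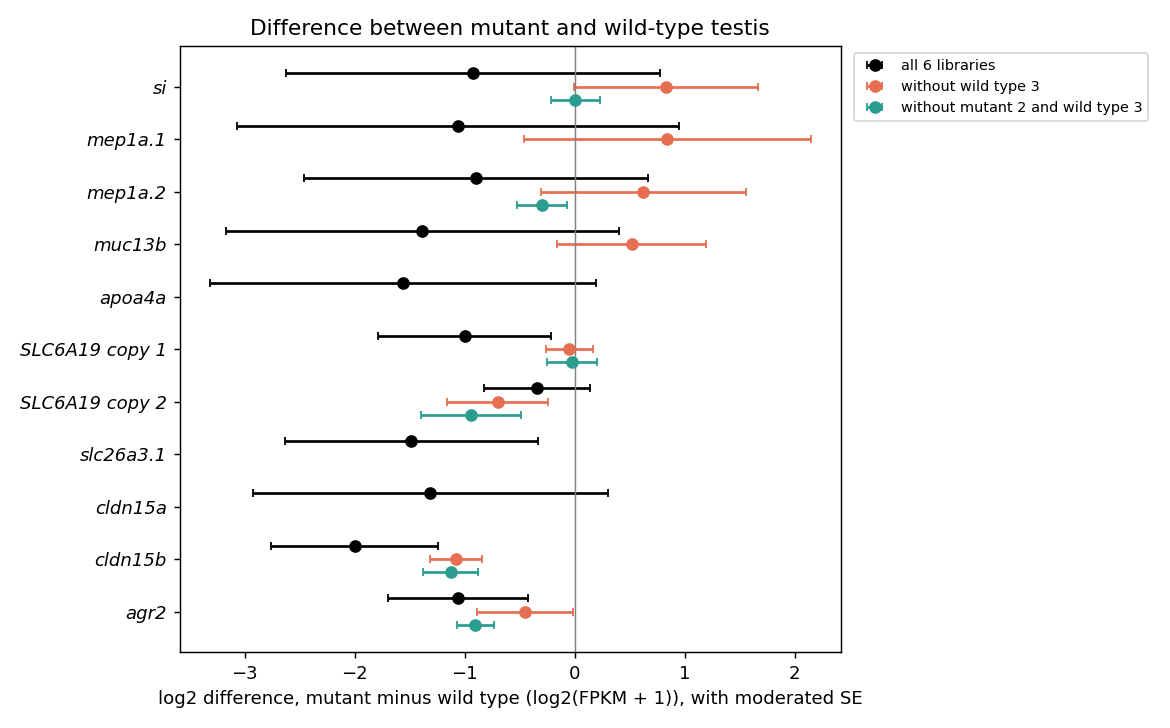
Log2 difference between mutant and wild type for each gene (points, on the log2(FPKM + 1) scale) with its moderated standard error (bars), from all 6 libraries, without wild type 3 and without mutant 2 and wild type 3. Missing points are genes under the filter. The differences of si, mep1a.1, mep1a.2 and muc13b turn from below 0 to above 0 without wild type 3, while that of cldn15b is -1.08 without it.

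Other genes of the intestine were taken from lists, with the 11 genes left out of each. 0 genes of any of the 15 lists were called by limma (adjusted p below 0.05, 0.0592% of all genes tested). A gene low elsewhere could enter the test through wild type 3 alone, so the counts over tested genes are descriptions. Of the brush border list, 15 of 23 matched genes were tested, and for 12 of the 15 wild type 3 was highest and mutant 2 second, as for 9.93% of all genes tested. For 8 of the 15, both were 4-fold above the other 4 libraries. That held for 3 of 19 tested transporter genes, 2 of 13 of lipid absorption, 5 of 14 of the kidney and 1 of 14 of smooth muscle and enteric nerve. It held for 0 tested genes of the goblet, enteroendocrine, other epithelial, exocrine and endocrine pancreas, liver, blood, germ cell and testis somatic lists. pdzk1, a scaffold below the microvilli, was at 0.133, 35.4 and 0.0776 FPKM in mutant 1, 2 and 3, against 0.0763, 0.333 and 216 FPKM in wild type 1, 2 and 3. anpepb, an aminopeptidase, was at 0.347, 26.1 and 0.367 FPKM in the mutant and at 0.373, 0.543 and 128 FPKM in wild type. cdh17, an adhesion protein of the intestine, was at 0.598, 38.5 and 0.434 FPKM in the mutant and at 0.985, 0.224 and 116 FPKM in wild type. Among the brush border genes in which wild type 3 was 4-fold above the other 4, the median level in mutant 2 was 23.8% of that in wild type 3.

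For the transporter list, 19 of 28 matched genes were tested, and wild type 3 was highest with mutant 2 second in 7 of the 19. slc5a1, the sodium-glucose carrier, was at 20.2 FPKM in mutant 2 and 90.7 FPKM in wild type 3, and at most 0.0158 FPKM in the others. aqp8a.2, a water channel, was at 0.00, 0.180 and 0.151 FPKM in mutant 1, 2 and 3, against 0.593, 0.566 and 99.9 FPKM in wild type 1, 2 and 3, so wild type 3 alone was high. abcg2a, an exporter that all libraries held, was at 11 to 15.6 FPKM in the mutant and 17.8 to 57.4 FPKM in wild type (adjusted p = 0.747, limma). Its groups were without overlap, as for 6.45% of all genes tested in this direction.

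In the list of lipid absorption, 13 of 24 matched genes were tested. fabp6, the bile acid binding protein of the ileum in mammals, was at 0.0889, 147 and 0.156 FPKM in mutant 1, 2 and 3, against 0.127, 0.25 and 2299.9 FPKM in wild type 1, 2 and 3. apoa1b, an apolipoprotein, was at 1.73, 2.51 and 3.72 FPKM in the mutant and at 2.81, 5.50 and 152 FPKM in wild type. apoeb, which many cell types make, was at 114 to 181 FPKM in the mutant and 114 to 283 FPKM in wild type. Where wild type 3 was 4-fold above the other 4 libraries (7 genes of the list), the level in mutant 2 was 1.65% to 9.85% of that in wild type 3, below the 13.5% to 33.1% of all brush border genes of that kind except tm4sf5 (6.71%). No test was made of this contrast.

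Of the regulators of the intestinal lining, 11 of 17 matched genes were tested, and in 4 of the 11 both libraries were 4-fold above the other 4. hnf4a, a nuclear receptor of gut and liver, was at 0.174, 1.72 and 0.218 FPKM in mutant 1, 2 and 3, against 0.0856, 0.0700 and 10.5 FPKM in wild type 1, 2 and 3. gata6 was at 13.5 to 18.6 FPKM in the mutant and 13.9 to 24.6 FPKM in wild type, and gata4 at 6.02 to 10.7 and 4.94 to 7.13 FPKM. In mammals, gata4 and gata6 are also made in gonadal somatic cells. Of the goblet and secretory list, tmed6 was at 1.34, 8.49 and 13.6 FPKM in mutant 1, 2 and 3, against 5.17, 6.54 and 77.7 FPKM in wild type 1, 2 and 3. creb3l1 (15.7 to 30.1 FPKM in the mutant and 9.19 to 16.1 FPKM in wild type) and galnt12 (3.33 to 4.25 and 3.61 to 5.19 FPKM) did not have wild type 3 and mutant 2 far above the rest. Of the hormone and nerve peptides, vip was at 0.635 to 5.21 FPKM in the mutant and 0.583 to 52.1 FPKM in wild type, nts at 0.00 to 0.217 and 0.466 to 18.6 FPKM, and cck at 6.03 to 9.20 and 23.3 to 35.2 FPKM. nts and cck were below wild type in every mutant library, as were 6.45% of all genes tested. For cck the adjusted p was 0.0889 with all libraries (limma). Among epithelial genes at large, krt8 was at 449 to 643 FPKM in the mutant and 367 to 512 FPKM in wild type, and krt18 at 85.8 to 131 and 98.0 to 121 FPKM. epcam, an adhesion protein of epithelia, was at 0.195, 12.7 and 2.30 FPKM in mutant 1, 2 and 3, against 36.3, 19.8 and 91.7 FPKM in wild type 1, 2 and 3 (adjusted p = 0.554, limma). Its groups did not overlap, as for 6.45% of all genes tested in this direction.

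**Figure D4:**
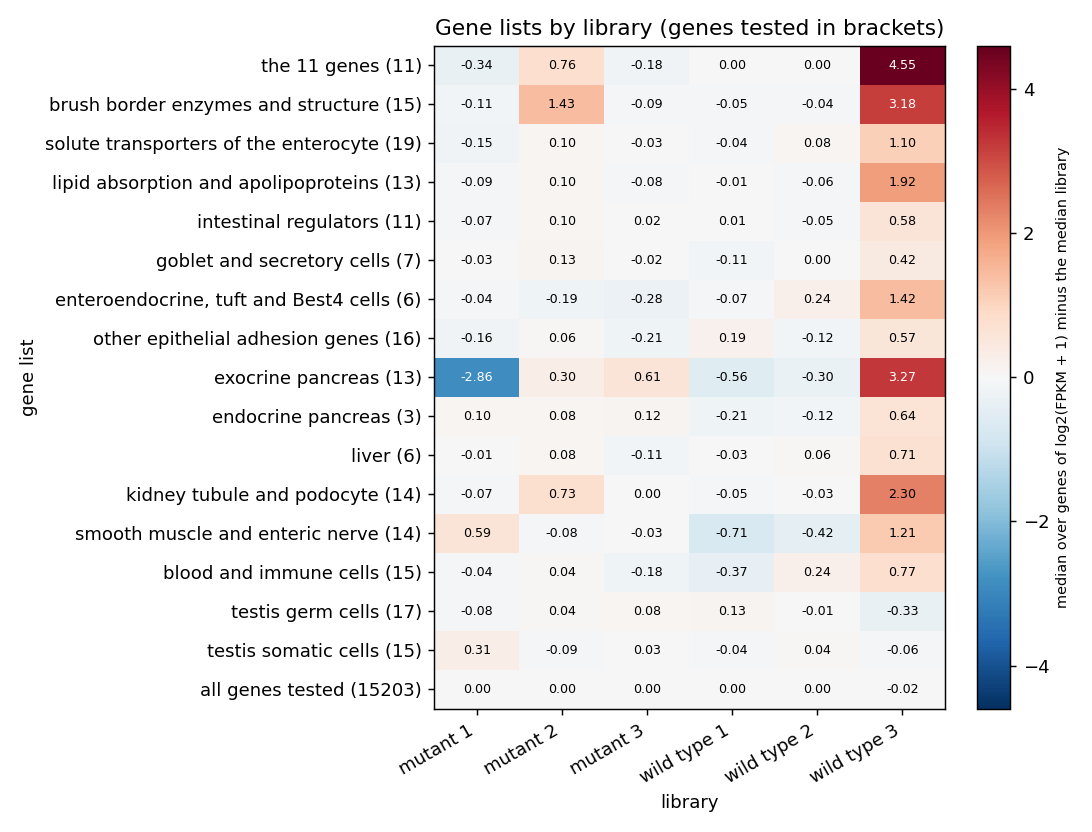
Median over the tested genes of each list of log2(FPKM + 1) minus the gene's own median library, by library (mutant libraries on the left, wild-type libraries on the right). The 11 genes reach 0.76 in mutant 2 and 4.55 in wild type 3, the brush border list 1.43 and 3.18, and the exocrine pancreas list 0.30 and 3.27, and the pancreas list is at 0.61 in mutant 3.

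Markers of other organs moved with wild type 3, and some of them with mutant 2, and their part in the levels of the 11 genes was not tested. The exocrine pancreas list summed to 311, 2982 and 3234 FPKM in mutant 1, 2 and 3, against 1311, 1573 and 21649 FPKM in wild type 1, 2 and 3. Its 13 genes were all highest in wild type 3. prss1, trypsin, was at 156, 1164 and 1141 FPKM in the mutant and at 461, 704 and 8632 FPKM in wild type. CELA1, elastase, was at 39.9 to 584 FPKM in the mutant and 208 to 3667 FPKM in wild type, and cpb1, a carboxypeptidase, at 33.4 to 360 and 163 to 2287 FPKM. Mutant 3 held as much of the pancreatic genes as mutant 2, whereas the 11 genes summed to 25.4 FPKM in mutant 3 and 87.2 FPKM in mutant 2. Of the pancreatic islet list, scgn was at 1.93 to 5.67 FPKM in the mutant and 2.02 to 19.0 FPKM in wild type, and pcsk2 and scg3 stayed at or below 2.50 FPKM in every library.

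The kidney list summed to 43.3, 150 and 53.1 FPKM in mutant 1, 2 and 3, against 48, 45.7 and 385 FPKM in wild type 1, 2 and 3. In 8 of its 14 tested genes wild type 3 was highest and mutant 2 second. amn, part of the receptor for protein uptake in kidney and, in zebrafish, in enterocytes of the posterior intestine, was at 0.00, 25.6 and 0.00 FPKM in mutant 1, 2 and 3, against 0.00, 0.0922 and 113 FPKM in wild type 1, 2 and 3. slc12a3, a sodium-chloride carrier, had the opposite balance, at 0.378, 51.3 and 0.417 FPKM in the mutant and at 4.0, 0.429 and 4.86 FPKM in wild type. aqp1a.1 was at 16.8 to 19.5 FPKM in the mutant and 15.5 to 122 FPKM in wild type. Of the 14 tested kidney genes, 7 had wild type 3 and 6 had mutant 2 at least 4-fold above the highest of the other 4 libraries. Other genes of the list, picked after their values were seen, were low. nphs1, PAX2, pax8, slc5a2 and clcnk were at or near 0, with at most 0.611 FPKM in any library. The liver list summed to 37.0, 64.0 and 41.3 FPKM in mutant 1, 2 and 3, against 78.5, 74.2 and 173 FPKM in wild type 1, 2 and 3. Of this list, 6 of 23 matched genes were tested. In 2 of the 6, wild type 3 was at least 4-fold above the other 4 libraries (4.64% of all genes tested), and mutant 2 in 0. fga and fgb, which encode fibrinogen chains and were picked after their values were seen, had at most 0.11 FPKM in any library. tfa, transferrin, was at 17.4 to 39.1 FPKM in the mutant and 57.3 to 130 FPKM in wild type, without overlap, as for 6.45% of all genes tested in this direction. cyp2ad2 was at 5.21 to 6.52 FPKM in the mutant and 2.18 to 23.3 FPKM in wild type, and serpinf2b at 2.81 to 8.90 and 4.68 to 5.2 FPKM. serpinc1, antithrombin, was at 5.45 to 7.52 FPKM in the mutant and 3.48 to 5.98 FPKM in wild type. hp, haptoglobin, was at 0.157 to 0.384 FPKM in the mutant and 0.433 to 3.13 FPKM in wild type, without overlap (6.45% of all genes tested were apart in this direction). igfbp1a was at 1.05 to 1.41 FPKM in the mutant and 0.346 to 0.630 FPKM in wild type, above wild type in all mutant libraries, as were 7.55% of all genes tested.

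Smooth muscle genes are shared by the gut wall and the testis. Wild type 3 highest with mutant 2 second was about as frequent among them as among all genes tested. Of the 14 tested genes of the smooth muscle and enteric nerve list, wild type 3 was highest for 10 (27.6% of all genes tested). It was highest with mutant 2 second for 1 (9.93% of all genes tested). acta2, an actin of smooth muscle, was at 248, 134 and 166 FPKM in mutant 1, 2 and 3, against 37.4, 72.8 and 516 FPKM in wild type 1, 2 and 3. tagln was at 340 to 572 FPKM in the mutant and 205 to 571 FPKM in wild type, and myl9a at 214 to 346 and 108 to 303 FPKM. desmb, a desmin, was highest in wild type 3 and second in mutant 2, with 0.122, 13.7 and 0.107 FPKM in the mutant and 1.87, 0.00 and 227 FPKM in wild type. For 10 of the 15 tested blood and immune genes, wild type 3 was also the highest library. Of the blood and immune list, coro1a was at 12.4 to 17.6 FPKM in the mutant and 11.1 to 43.3 FPKM in wild type, and the mpx copies at 28.4 to 34.7 and 8.97 to 25.3 FPKM (ENSORLG00000009297, above wild type in all mutant libraries, as were 7.55% of all genes tested) and at 7.43 to 8.21 and 7.23 to 26.1 FPKM (ENSORLG00000009349). In the testis lists wild type 3 was not high. It was the highest library for 0 of the 17 tested germ cell genes and 0 of the 15 tested somatic genes, whereas it was highest for 27.6% of all genes tested. piwil1, which silences transposons in germ cells, was at 382 to 450 FPKM in the mutant and 317 to 519 FPKM in wild type, with its lowest value in wild type 3. dazl, an RNA-binding protein of germ cells, was at 265 to 352 FPKM in the mutant and 288 to 356 FPKM in wild type. amh, made by Sertoli cells, was at 87.8 to 127 FPKM in the mutant and 64.1 to 114 FPKM in wild type, and cyp11b, an androgen enzyme, at 34.7 to 67.5 and 35.6 to 42.6 FPKM.

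Likeness to the 11 genes was measured as Pearson's correlation of log2(FPKM + 1) over the 6 libraries with the mean of the 11. Among 6793 genes with a symbol and at least 10 FPKM in any library, 236 had a correlation above 0.95. The points share the libraries, and wild type 3 lies far from the others, so the measure is a description. The 12 closest genes had correlations of 0.994 to 0.999. They were abcc12, CERS5, azin1b, sh3bgrl3, tmc4, chia.1, dpydb, vill, SLC9A3R1, zgc:103681, a1cf and tmlhe. abcc12, the closest, was at 0.390, 2.43 and 0.368 FPKM in mutant 1, 2 and 3, against 0.785, 0.798 and 16.8 FPKM in wild type 1, 2 and 3. vill, which encodes a villin-like protein, was at 0.827, 6.27 and 0.896 FPKM in the mutant and at 1.59, 1.53 and 41.8 FPKM in wild type. SLC9A3R1, a scaffold below the apical membrane, was held by all libraries, at 19.9 to 30.9 FPKM in the mutant and 20.05 to 97.8 FPKM in wild type.

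In 13 genes (0.0855% of those tested), mutant 2 was at least 4-fold above each of the other 5 libraries, and 0 of the 11 were among them. They include slc12a3, described with the kidney list, and others picked for naming after their values were seen. lgals3b, a galectin, was at 8.23, 92.2 and 6.28 FPKM in mutant 1, 2 and 3, against 16.0, 9.85 and 14.1 FPKM in wild type 1, 2 and 3. S100P, a calcium-binding protein, was at 0.0714, 37.6 and 0.00 FPKM in the mutant and at 1.29, 0.00 and 1.49 FPKM in wild type. malb was at 0.106, 43.0 and 0.00 FPKM in the mutant and at 0.609, 0.00 and 6.91 FPKM in wild type, so wild type 3 was second there. cldnb, a claudin, was at 0.679, 15.6 and 0.495 FPKM in the mutant and at 2.43, 0.530 and 1.06 FPKM in wild type.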

How the data were processed

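Total RNA of medaka testis was sequenced in 6 libraries. The authors deposited, for each gene and library, a value that behaves as FPKM: multiplied by the deposited gene length, 100% of the values above 0 are whole multiples of 1 read within 0.01 read. The file header itself does not name the unit. The total by which each library was divided is 14894653 multiplied by its size factor of median ratios, so scaling of that kind is already in the values. From the submitters' processing notes, which give no roles, come the names DESeq2 1.20.0, featureCounts 1.5.0-p3, HISAT2 2.0.5, fastp and CASAVA 1.8. The genome build and strand setting are not given in the sources used here. Of 8821 genes named by identifier alone, 682 received a symbol from RefSeq, and 16226 have one in all.

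The mutant was compared with wild type by limma 3.58.1 (R 4.3.3), fitted without covariate to log2(FPKM + 1). Moderation was robust with a trend in mean level, and p-values were adjusted by Benjamini-Hochberg over all genes tested. The pseudocount of 1 understates differences of low genes. Alternatives were a pseudocount of 0.1, no filter, library totals, limma-voom on the recovered reads, a replicate block, each library left out, mutant 2 and wild type 3 left out together, and a covariate from 75 intestinal list genes. The script was tested on simulated data. The genes and the 15 lists were chosen with earlier results of these data known. Named were the 11 genes, those sharing a symbol stem (agrn, agrp and AgRP2 share letters only and were left out), the 3 genes of each list with the highest level in any library, the 12 closest in pattern, and nphp4. Every other gene was named after its values were seen.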

Additional observations from a re-analysis of the deposited data

How the results depend on the processing

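0 of the 11 genes were called by limma with all libraries. In the 13 alternatives 0 of those that could be fitted were called, with adjusted p values of 0.199 or more. The genes were chosen by their levels in these libraries, so these counts are descriptions. Without wild type 3, 8 of the 11 could be fitted, and without mutant 2 and wild type 3 it was 6, since mep1a.1 and muc13b also dropped under the filter. Over all genes, 9 were called, against 14 under library totals, 27 with the covariate of intestinal list genes, 0 by limma-voom (1050 at an unadjusted p below 0.05, and 1084 by limma), and 2 to 18 with a library left out. The replicate block called 6 genes and 0 of the 11. The correlation of same-numbered libraries' deviations was 0.31 for number 1 but -0.56 and -0.42 for the others. Mutant 2 deviated with wild type 3 (0.61), and the deviations within a group are tied to each other. These values therefore cannot show whether the numbers pair the libraries, and the main fit used no pairing. With the covariate the difference was 0.21 for si, 0.26 for mep1a.1 and 0.14 for mep1a.2, and without mutant 2 and wild type 3 it was 0.0073 for si. With a library left out, the differences ran from -1.83 to 0.83 for si, -2.32 to 0.84 for mep1a.1, -1.82 to 0.62 for mep1a.2, -2.34 to 0.52 for muc13b and -0.70 to 0.10 for the second SLC6A19 copy. The cause was not tested. cldn15b and agr2 kept their direction in all 13 alternatives (-3.25 to -1.08 and -1.51 to -0.45). For cldn15b, all mutant libraries lay below all wild-type libraries, so leaving out libraries could not turn its sign. It passed the filter only through its wild-type mean. The first SLC6A19 copy was below 0 in all 13 (-1.48 to -0.02), but at -0.05 (SE 0.21) without wild type 3. Without mutant 2 as well it was -0.02 (SE 0.23). apoa4a, slc26a3.1 and cldn15a kept their direction in the 11 alternatives that could be fitted. All of those include wild type 3, through which alone these genes passed the filter, so their direction without it was not tested. Genes with 1 to 21 reads in the low libraries limit any fold stated for them.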
